A study of Mus musculus with 8 samples.

Results

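Tubulin transcripts were examined in mouse embryonic stem cells with a knockout of Prmt5, the enzyme that places symmetric methyl groups on arginines of spliceosomal and other proteins. The set held 10 genes of the 38991 gene identifiers measured, found by symbol: the alpha-tubulins Tuba1a, Tuba1b, Tuba1c, Tuba3a and Tuba4a, the beta-tubulins Tubb2a, Tubb2b, Tubb5 and Tubb6, and Tubg1. All 10 were found, and all 10 passed the filter on low values, which asked for 1 FPKM on average in iPKO or in iPHet. Tubg1 encodes gamma-tubulin, so the set was not purely alpha and beta, and Tubb3 was not analysed here. The set was chosen by the FPKM of Tuba1a, singled out by its lower level in this same contrast, so its values are given as a description with no test, and the question was whether the other 9 genes shared that difference.

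The tested genotype was iPKO, the Prmt5 knockout, with 4 libraries. The control was iPHet, by its name a heterozygote, also with 4 libraries. All were C57BL/6 male embryonic stem cells derived from blastocysts, first on mouse embryonic fibroblast feeders, and then kept in 2i, a medium whose inhibitors and LIF hold the cells in the naive ground state. Both genotypes received 2 µM 4-hydroxytamoxifen for 48 hours, followed by fresh 2i medium. Per the labels, 1 line of each genotype served in most experiments, PC4 for iPKO and PC1 for iPHet, so line and genotype cannot be told apart. Nothing in the labels ties the 4 libraries of a genotype to independent cultures, and the p-values therefore cover library-to-library spread that could be technical.

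Alpha- and beta-tubulin pair into the heterodimer from which microtubules are built, and mammals carry several genes, called isotypes, for each partner. Gamma-tubulin is not part of the microtubule wall and instead sits in the ring complex that nucleates new microtubules. Cells adjust tubulin mRNA to the amount of free heterodimer by autoregulation: the first residues of the nascent chain are recognised on the ribosome by the factor TTC5, and the mRNA being translated is degraded.

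The first 60 coding bases of 6 of the genes are shown because autoregulation reads the start of the chain. They come from the GENCODE vM21 transcripts (GRCm38), 5′ to 3′ on the coding strand, and the capitals mark the first 4 codons.
Tuba3a: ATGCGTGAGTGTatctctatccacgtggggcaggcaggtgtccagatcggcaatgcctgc
Tuba4a: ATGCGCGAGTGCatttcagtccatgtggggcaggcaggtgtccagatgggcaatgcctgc
Tubb2a: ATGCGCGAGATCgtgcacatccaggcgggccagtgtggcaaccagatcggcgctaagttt
Tubb2b: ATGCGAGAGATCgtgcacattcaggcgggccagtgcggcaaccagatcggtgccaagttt
Tubb5: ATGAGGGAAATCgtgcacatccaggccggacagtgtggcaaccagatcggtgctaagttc
Tubg1: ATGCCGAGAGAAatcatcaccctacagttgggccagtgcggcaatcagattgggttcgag
The capitals differed in bases between every pair of the 6 genes shown. Read as codons, they encode Met-Arg-Glu-Cys in Tuba3a and Tuba4a, Met-Arg-Glu-Ile in Tubb2a, Tubb2b and Tubb5, and Met-Pro-Arg-Glu in Tubg1. Of the 6, Tubg1 alone did not start with Met-Arg-Glu. Whether autoregulation acted on these genes here was not tested.

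The Tuba1a, Tuba1b and Tuba1c coding sequences are close along their length, which bears on how reads were assigned among them. Tuba1a matched Tuba1b at 98.3% of aligned coding bases (23 differing of 1353) and Tuba1c at 97.1% (39 differing of 1353). Of the 100-base windows of the Tuba1a coding sequence, 1021 of 1254 (81.4%) occurred exactly in another annotated gene, and the share was 91.1% for Tuba1b and 80.6% for Tuba1c. The same share was 45.1% for Tubb2a and 46.8% for Tubb2b, which are 96.5% identical to each other, 11.1% for Tuba3a and 5.58% for Tubg1. No coding window of Tuba4a, Tubb5 or Tubb6 was shared. Over the whole annotated Tuba4a transcript, however, 1280 of 2741 windows (46.7%) also occurred in Stk16, an overlapping gene on the other strand. How the authors' program divided reads that fit several copies is not stated, so the levels of Tuba1a, Tuba1b and Tuba1c, and of Tubb2a and Tubb2b, are uncertain individually.

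**Figure D1:**
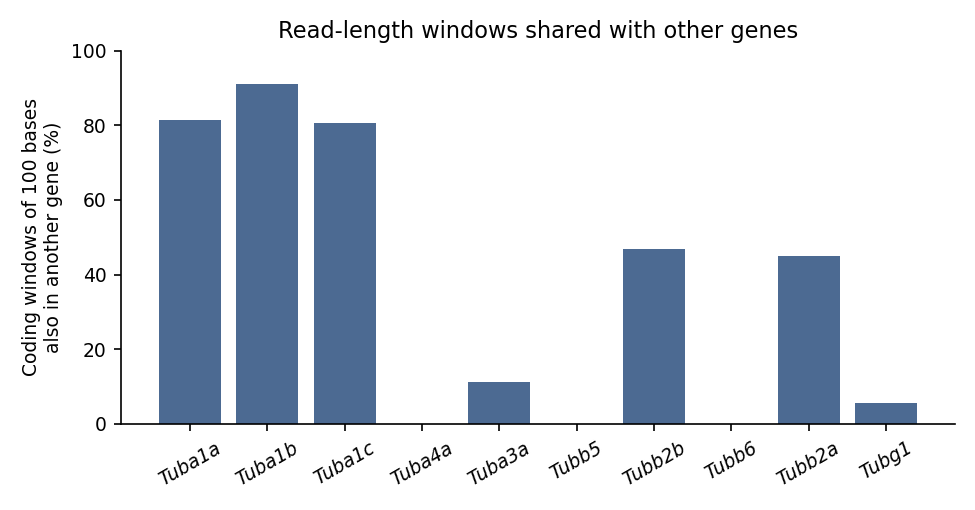
Share of 100-base coding windows (percent, vertical axis, bars from 0) of each listed gene that occur exactly in another annotated gene. Tuba1a, Tuba1b and Tuba1c stand at 81.4%, 91.1% and 80.6%, and Tuba4a, Tubb5 and Tubb6 at 0%.

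The libraries each listed 39013 rows, with 11640 to 12099 genes at 1 FPKM or more. FPKM are fragments per kilobase of transcript and per library size, a scale meant for comparing genes as well as libraries. Summed FPKM still differed, at 411827, 415561, 413014 and 417539 in iPKO libraries 1 to 4. In iPHet libraries 1 to 4 the sums were 458856, 417672, 458690 and 421412. The files hold no counts, and depth relative to iPHet 1, read from the lowest values, ran between 0.768 and 1.24. Prmt5 itself was at 11.8 to 15.0 FPKM in iPKO and 52.8 to 72.2 FPKM in iPHet, 4.66-fold lower in iPKO. In the test over all 12462 genes, limma on log2(FPKM + 1), 1973 genes (15.8%) were called at an adjusted p under 0.05, 785 (6.3%) of them higher and 1188 (9.53%) lower in iPKO. Among the 4104 genes averaging 20 FPKM or more, a range that holds most of the tubulins, 17.5% were called and 11.5% were called lower. With quantile normalization the split was 936 higher and 946 lower, and with upper-quartile scaling 968 higher and 881 lower. Libraries 1 and 3 of a genotype resembled each other, as did 2 and 4: their log2 values differed by 0.305 to 0.409 (root mean square) and those of other library pairs within a genotype by 0.583 to 0.663. Averaging each such pair left 7 genes called, 1126 genes at an unadjusted p under 0.05, and no listed tubulin. Adding the library number as a block raised the count to 3427 genes.

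Tuba1a, the alpha-tubulin isotype best known from developing neurons (chr15:98949841-98953551, mm10), was the listed gene with the largest difference. Its level was 49.1, 69.6, 70.01 and 101 FPKM in iPKO libraries 1 to 4 and 166, 142, 184 and 175 FPKM in iPHet libraries 1 to 4. Every iPKO library lay below every iPHet library, and iPKO 4 was the highest of its genotype. The means were 72.5 ± 21.5 FPKM in iPKO and 167 ± 17.8 FPKM in iPHet (SD, n = 4 each), 2.3-fold lower in iPKO, a log2 change of -1.23. Of all genes tested, 82 (0.658%) had a log2 change as low or lower. That share is a description only, since Tuba1a was singled out by this same difference. Odd-numbered libraries gave a log2 change of -1.56 and even-numbered ones -0.90, and it lay between -1.40 and -1.06 when any 1 library was left out. In bulk RNA, fewer cells of a type that expresses Tuba1a and less Tuba1a RNA per cell cannot be told apart.

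**Figure D2:**
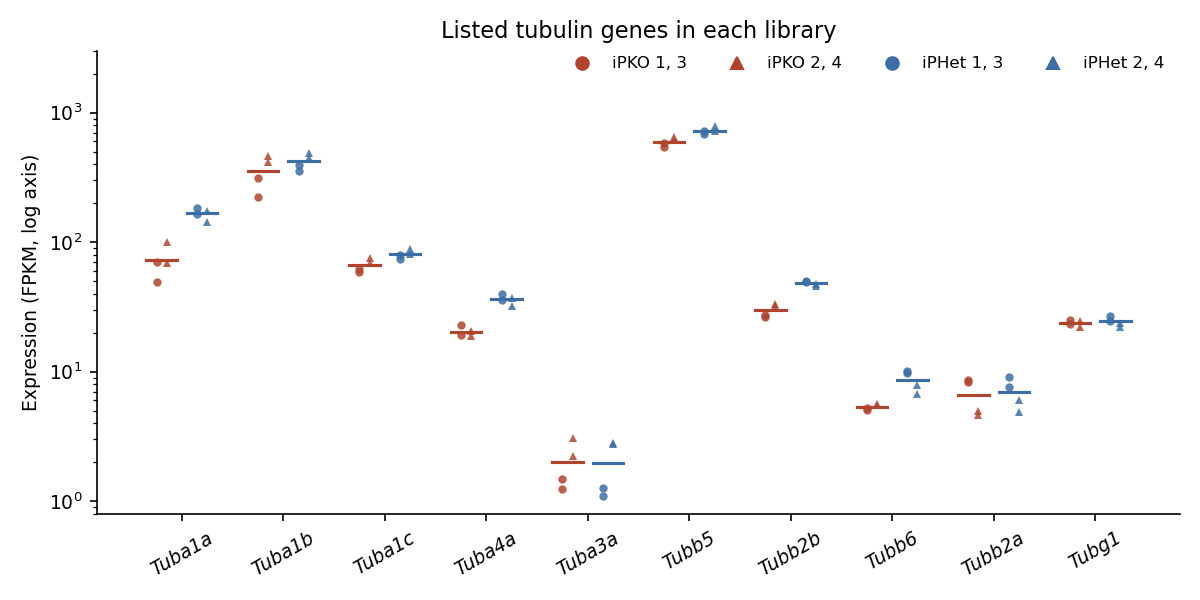
FPKM of the listed tubulin genes in each library (log axis), iPKO left of iPHet for each gene, with circles for libraries 1 and 3, triangles for 2 and 4, and horizontal bars for means. Tuba1a at 49.1 to 101 FPKM in iPKO lies below its 142 to 184 FPKM in iPHet, and the ranges of Tuba1b, Tuba1c, Tuba3a, Tubb2a and Tubg1 overlap between the genotypes.

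Of the other 9 listed genes, 3 fell in iPKO (Tuba4a, Tubb2b and Tubb6), none rose and 6 were not called, against 9.53% of all genes called lower. In 8 of the 9 the log2 change was below 0, against 7055 of all 12462 genes tested. The median log2 change over the 9 was -0.29, against -0.04 over all genes tested. In 4 of the 9 (Tuba4a, Tubb2b, Tubb5 and Tubb6) the genotypes did not overlap, against 15.0% of all genes with no overlap and a lower iPKO level. Tuba1a was thus accompanied by lower levels in part of the set, and by differences within the spread of libraries in Tuba1b, Tuba3a, Tubb2a and Tubg1. With the library number as a block 5 of the 9 were called lower, Tuba1c and Tubb5 in addition, against 16.6% of all genes. With an estimated correlation within library pairs 0 of the 9 were called, against 0.233% of all genes. With pair averages and a term for odd and even numbers, over protein-coding genes, 1 of the 9 was called, against 1.05%.

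**Figure D3:**
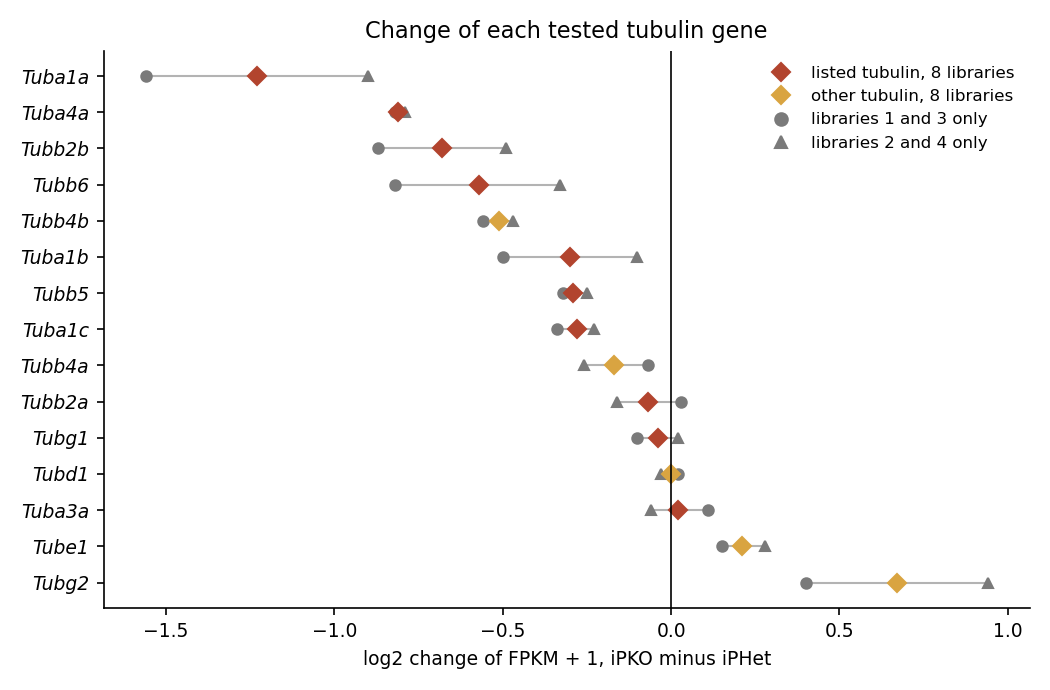
Log2 change, iPKO minus iPHet, of FPKM + 1 for the listed tubulins (red diamonds) and other tested tubulins (yellow diamonds) from all 8 libraries, with circles for libraries 1 and 3 alone and triangles for 2 and 4 alone. Tuba1a at -1.23 lies lowest, followed by Tuba4a at -0.81, Tubb2b at -0.68 and Tubb6 at -0.57, and Tuba3a, Tubb2a and Tubg1 lie near 0.

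Tuba1b, the main alpha-tubulin of dividing cells (chr15:98931425-98934565), was the most abundant alpha-tubulin in both genotypes. It stood at 222, 416, 312 and 463 FPKM in iPKO and at 354, 449, 393 and 489.5 FPKM in iPHet. The genotypes overlapped, and in both the odd-numbered libraries were the lower ones. Means were 353 ± 108 FPKM in iPKO and 422 ± 59.9 FPKM in iPHet (SD, n = 4 each), a log2 change of -0.30 (SE 0.23) that limma did not call (adjusted p = 0.414).

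Tuba1c, a further alpha-tubulin of the same cluster (chr15:99029891-99038105), had 62.4, 75.7, 59.3 and 68.8 FPKM in iPKO libraries and 80.2, 88.8, 74.6 and 80.5 FPKM in iPHet libraries. Only iPKO 2, at 75.7 FPKM, exceeded the lowest iPHet library. The log2 change of -0.28 (SE 0.09) missed the threshold (adjusted p = 0.0689), passed it with the replicate block (adjusted p = 0.0131) and passed it without iPKO 2 (adjusted p = 0.0392).

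Tuba4a (chr1:75214974-75219253), an alpha-tubulin whose gene, unlike the others, does not encode the C-terminal tyrosine, fell to 20.4 ± 1.79 FPKM in iPKO, against 36.4 ± 3.2 FPKM in iPHet (SD, n = 4 each). The libraries were at 19.1, 19.0, 22.8 and 20.5 FPKM in iPKO and at 35.7, 32.4, 40.01 and 37.4 FPKM in iPHet, with no overlap. The log2 change was -0.81 (SE 0.09, adjusted p = 0.00127), and it was -0.82 in odd-numbered and -0.79 in even-numbered libraries. It was no longer called with pair averages (adjusted p = 0.375) or with an estimated correlation (adjusted p = 0.196), and it was called with pair averages and an odd and even term over protein-coding genes (adjusted p = 0.0396). Tuba4a overlaps Stk16, a kinase gene on the other strand, which averaged 29.4 FPKM in iPKO and 25.6 FPKM in iPHet. No source used here gives the strand, and exchange of reads between these overlapping genes was not tested.

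Tuba3a (chr6:125278274-125286042), an isotype known mainly from testis, was the least abundant member. Its level was 1.48, 2.23, 1.25 and 3.1 FPKM in iPKO and 1.1, 2.76, 1.27 and 2.84 FPKM in iPHet. Odd-numbered libraries were lower than even-numbered ones in both genotypes, and the genotypes overlapped throughout (log2 change 0.02, SE 0.27, adjusted p = 0.963).

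Tubb5 (chr17:35833926-35838306), the beta-tubulin of most dividing cells, was the most abundant tubulin. It measured 538, 609.9, 579 and 648 FPKM in iPKO and 678, 716, 716 and 784 FPKM in iPHet. Every iPKO library was below every iPHet library, with means of 594 ± 46.7 FPKM in iPKO and 723 ± 44.1 FPKM in iPHet (SD, n = 4 each). The log2 change of -0.29 (SE 0.08) was not called (adjusted p = 0.0523), and it was called with the replicate block (adjusted p = 0.0152) and with a filter of 5 FPKM (adjusted p = 0.0449). Other scalings left it as small as -0.15.

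Tubb2b (chr13:34127008-34130354), a beta-tubulin of developing neurons, fell to 29.8 ± 3.5 FPKM in iPKO, against 48.2 ± 2.16 FPKM in iPHet (SD, n = 4 each). Libraries stood at 26.3, 33.2, 27.3 and 32.4 FPKM in iPKO and at 50.4, 45.6, 49.5 and 47.4 FPKM in iPHet, and did not overlap. The log2 change was -0.68 (SE 0.09, adjusted p = 0.00263), -0.87 in odd-numbered and -0.49 in even-numbered libraries. Pair averages (adjusted p = 0.446) and an estimated correlation (adjusted p = 0.0619) ended the call.

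Tubb2a (chr13:34074301-34078008), the close copy of Tubb2b, was not called. It had 8.61, 4.61, 8.4 and 4.97 FPKM in iPKO, and 7.63, 4.93, 9.09 and 6.07 FPKM in iPHet. The odd-numbered libraries were the higher ones in both genotypes, and the log2 change was -0.07 (SE 0.23, adjusted p = 0.873).

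Tubb6 (chr18:67390717-67402748), a beta-tubulin of low abundance in many tissues, fell to 5.38 ± 0.267 FPKM in iPKO, against 8.59 ± 1.58 FPKM in iPHet (SD, n = 4 each). Its libraries were at 5.03, 5.59, 5.29 and 5.58 FPKM in iPKO and at 9.71, 6.7, 10.1 and 7.89 FPKM in iPHet. The genotypes did not overlap, though iPHet 2 came close to iPKO. The log2 change was -0.57 (SE 0.12, adjusted p = 0.0164), but -0.82 in odd-numbered and -0.33 in even-numbered libraries. It lost its call with no filter on low values (adjusted p = 0.0584), with pair averages (adjusted p = 0.516) and with an estimated correlation (adjusted p = 0.256).

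Tubg1 (chr11:101119938-101126419), the main gamma-tubulin, was not called and overlapped between the genotypes, at 23.2, 22.2, 25.1 and 24.8 FPKM in iPKO and 24.8, 22.2, 27.1 and 23.9 FPKM in iPHet. The log2 change was -0.04 (SE 0.07, adjusted p = 0.773), and it was 0.00 with quantile normalization and 0.01 with upper-quartile scaling.

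In order of mean level, iPKO cells had Tubb5, Tuba1b, Tuba1a, Tuba1c, Tubb2b, Tubg1, Tuba4a, Tubb2a, Tubb6 and Tuba3a. Neighbours whose libraries overlapped in that order were Tuba1a with Tuba1c, Tubg1 with Tuba4a, and Tubb2a with Tubb6. In iPHet cells Tuba4a stood above Tubg1 and Tubb6 above Tubb2a, and only Tubb6 and Tubb2a overlapped as neighbours. Tuba1a thus lay above Tuba1c in every iPHet library, and their ranges overlapped in iPKO.

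A sum over the 5 alpha-tubulins is less affected by how reads were divided among these genes themselves. It does not cover genes outside the sum: 547 transcript windows of Tuba1a and 536 of Tuba1b also occurred in AC157548.1. The sum was 355, 583, 466 and 657 FPKM in iPKO and 637, 716, 693 and 785 FPKM in iPHet. The iPKO mean of 515 ± 133 FPKM was 72.8% of the iPHet mean of 708 ± 61.5 FPKM (SD, n = 4 each), and iPKO 4 lay above iPHet 1, so the genotypes overlapped. Without Tuba1a the alpha sum was 442 ± 114 FPKM in iPKO and 541 ± 62.6 FPKM in iPHet. The 4 beta-tubulins summed to 635 ± 48.2 FPKM in iPKO and 787 ± 42.0 FPKM in iPHet (SD, n = 4 each), 80.7%, and these did not overlap. Tuba1a made up 13.9, 11.9, 15.0 and 15.4% of the alpha sum in iPKO and 26.0, 19.9, 26.5 and 22.3% in iPHet, with no overlap. Tuba1b made up 67.9 ± 3.94% of it in iPKO and 59.4 ± 3.72% in iPHet, and these overlapped. Since the Tuba1a level is part of the full alpha sum and of these shares, they carry no test, and the other sums were not tested either. Alpha over beta was 0.802 ± 0.151 in iPKO and 0.898 ± 0.0359 in iPHet (SD, n = 4 each), with overlap.

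**Figure D4:**
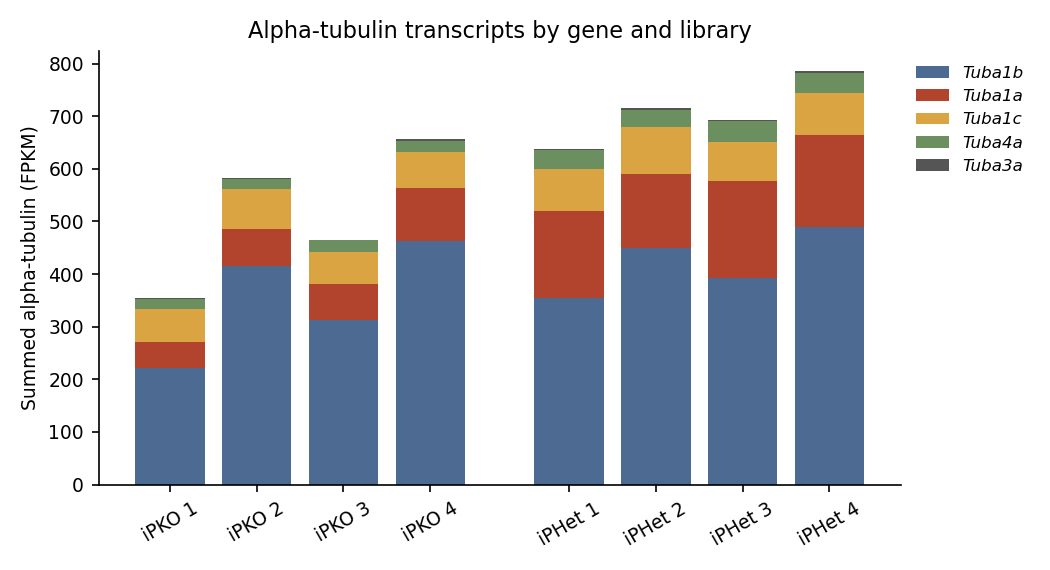
Level of the listed alpha-tubulins in each library (FPKM, stacked by gene), iPKO libraries left of iPHet libraries. The stacks reach 355 to 657 FPKM in iPKO and 637 to 785 FPKM in iPHet, with Tuba1b the largest layer in every library.

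The deposited confidence bounds of Tuba1a reached at most 107 FPKM in iPKO and began at 135 FPKM in iPHet, so they did not overlap. Bounds were also apart for Tuba4a, at most 24.4 FPKM in iPKO and at least 30.3 FPKM in iPHet, and for Tubb2b and Tubb5. For Tuba1c, Tubb2a, Tubb2b and Tubb6 the deposited FPKM lay above its own upper bound in all 8 libraries, by up to 36.8% for Tuba1c, and for Tubb5 in 7. Between 26.4% and 33.2% of genes at 5 FPKM or more in a library lay outside their own bounds, so the bounds were not used as errors.

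A further 9 tubulin genes in the files are not members of the set, and 5 of them passed the filter. Tubb4b, a widely expressed beta-tubulin, fell to 192, 218, 199 and 232 FPKM in iPKO, against 283, 305, 293 and 318 FPKM in iPHet, a log2 change of -0.51 (SE 0.08, adjusted p = 0.00511) that was not called with an estimated correlation (adjusted p = 0.124). Tubg2, the second gamma-tubulin, rose to 2.68, 2.93, 2.93 and 2.94 FPKM in iPKO, against 2.08, 0.971, 1.7 and 1.14 FPKM in iPHet (log2 change 0.67, SE 0.15, adjusted p = 0.0206). Its call was lost without iPHet 4, iPKO 3 or iPKO 4, at an adjusted p of up to 0.0568, and with an estimated correlation (adjusted p = 0.291). Neither genotype overlapped the other for these genes. Tubb4a, Tubd1 and Tube1 were not called. Tuba3b was at 0.0521 to 0.295 FPKM in iPKO and listed at 0 in all iPHet libraries. Tuba8 was listed at 0 in all iPKO libraries and at 0.0219 to 0.0617 FPKM in iPHet, and Tubal3 was listed at 0 in all libraries.

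Among 80 genes that fold, modify, nucleate or bind tubulin, other tubulins included, 73 were tested: 3 rose, 5 fell and 65 were not called, and 15.8% of all genes were called. The median log2 change was -0.03, against -0.04 over all genes. With the replicate block 14 of the 73 were called, against 3427 of all 12462 genes. With an estimated correlation 0 of the 73 were called, against 52 of all 12462 genes. No call was made among 8 folding cofactors (median 0.06) or 8 subunits of CCT, the chaperonin that folds tubulin (median -0.09). With the replicate block the folding cofactor Tbcb was called higher in iPKO (limma adjusted p = 0.0153). Cct4 averaged 342 ± 58.4 FPKM in iPKO and 274 ± 8.41 FPKM in iPHet (n = 4 each; limma adjusted p = 0.125), and Cct5 323 ± 34.9 FPKM in iPKO and 395 ± 47.8 FPKM in iPHet (limma adjusted p = 0.122; 0.011 with the replicate block). In prefoldin, which hands tubulin to CCT, 1 of 6 fell, against 9.53% of all genes: Pfdn6, at 12.4 ± 1.91 FPKM in iPKO and 18.0 ± 2.96 FPKM in iPHet (SD, n = 4 each; adjusted p = 0.0433). That call was lost in 6 of the fits that left out a library and with an estimated correlation (adjusted p = 0.525).

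In the gamma-tubulin ring complex 1 of 9 fell, against 9.53% of all genes. It was Tubgcp2, a core subunit, at 16.3, 16.9, 16.2 and 17.8 FPKM in iPKO and 21.9, 23.0, 23.0 and 24.9 FPKM in iPHet (log2 change -0.44, SE 0.06, adjusted p = 0.00339; 0.176 with an estimated correlation). Of 14 tested tubulin-modifying enzymes 1 rose, against 6.3% of all genes. It was Hdac6, the tubulin deacetylase, at 55.5, 52.6, 56.2 and 53.7 FPKM in iPKO and 45.0, 41.7, 45.4 and 45.1 FPKM in iPHet (log2 change 0.29, SE 0.05, adjusted p = 0.01; 0.291 with an estimated correlation). Tubgcp2 and Hdac6 were separate between the genotypes. With the replicate block Mzt1, Tubgcp6 and Cdk5rap2 of the ring complex were also called lower (limma adjusted p = 0.0295, 0.0416 and 0.0244).

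Of 23 tested microtubule lattice and plus-end proteins 1 rose and 2 fell, and 15.8% of all genes were called in either direction. Katna1, the severing subunit of katanin, rose to 42.4, 50.1, 39.4 and 49.5 FPKM in iPKO, against 31.9, 29.0, 31.0 and 28.3 FPKM in iPHet (log2 change 0.57, SE 0.09, adjusted p = 0.00573; 0.101 with an estimated correlation). Map1b and Map2, microtubule-associated proteins of neurons, fell to 3.0 ± 0.431 and 2.33 ± 0.757 FPKM in iPKO, against 4.24 ± 0.14 and 4.46 ± 0.678 FPKM in iPHet (SD, n = 4 each). Their adjusted p from limma was 0.0246 for Map1b and 0.0257 for Map2, and with an estimated correlation the adjusted p was 0.29 for Map1b and 0.339 for Map2. Both calls were lost in at least 5 of the fits that left out a library, and that of Map2 with the replicate block (adjusted p = 0.0516). Stmn2, a tubulin-sequestering stathmin of neurons, averaged 104 ± 22.2 FPKM in iPKO and 143 ± 18.3 FPKM in iPHet (n = 4 each, limma adjusted p = 0.0828, and 0.00931 with the replicate block). Stmn1 was likewise called lower only with the replicate block (limma adjusted p = 0.0165, against 0.124 without it). Ttc5, the reader of tubulin autoregulation, averaged 44.0 ± 4.27 FPKM in iPKO and 38.9 ± 0.973 FPKM in iPHet and was not called (n = 4 each; limma adjusted p = 0.171).

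Tuba1a, Tuba1b and Tuba1c lie in a cluster on chromosome 15, and 13 tested genes lie within 250 kb of Tuba1a. Of these 1 fell, against 9.53% of all genes called lower: Fkbp11, a peptidyl-prolyl isomerase of the secretory pathway. It was at 3.14, 3.58, 4.41 and 4.8 FPKM in iPKO and 9.43, 10.7, 9.59 and 13.5 FPKM in iPHet (log2 change -1.24, SE 0.14, adjusted p = 0.00165; 0.205 with an estimated correlation). The other 12, Tuba1b and Tuba1c included, were not called, and Kmt2d was listed at 0 in iPHet 2. With the replicate block Tuba1c and Arf3 were called lower (limma adjusted p = 0.0131 and 0.0484).

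**Figure D5:**
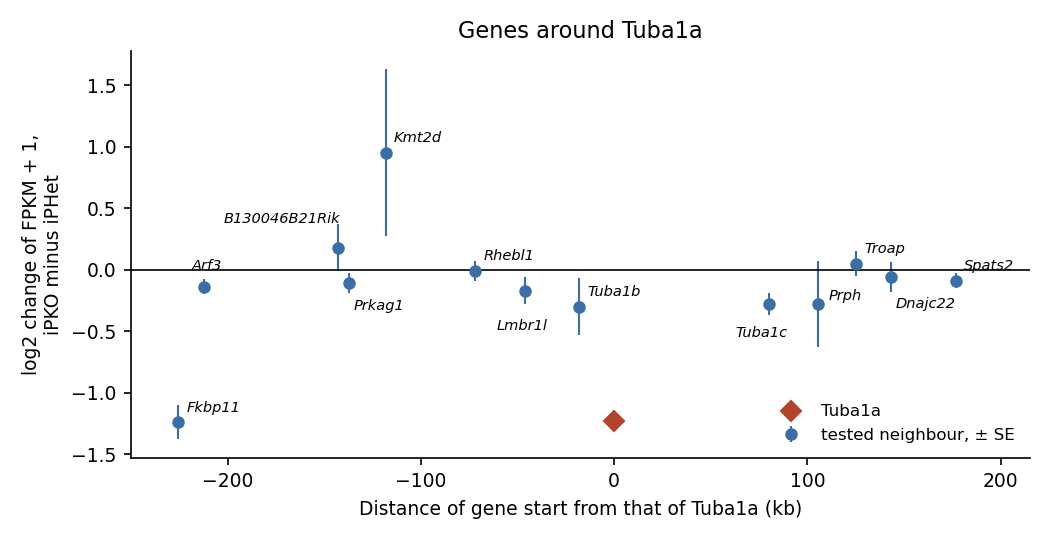
Log2 change, iPKO minus iPHet, of tested genes (points, bars ± SE; none for Tuba1a) against distance of the gene start from that of Tuba1a (kb). Tuba1a at -1.23 and Fkbp11 at -1.24 lie lowest, and Tuba1b at -0.30 and Tuba1c at -0.28 lie between them and 0.

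The promoters of Tuba1a and Tuba1b, 250 bases before the RefSeq start (GRCm38.p6), are shown because these neighbours are near-copies in coding sequence and had log2 changes of different size, -1.23 and -0.30. Both lie on the minus strand, at chr15:98953502-98953751 and chr15:98934391-98934640, and are printed 5′ to 3′ with motif matches in capitals. On this strand the genes as positioned above begin at chr15:98953551 and chr15:98934565, so part of each stretch lies within its gene.
Tuba1a: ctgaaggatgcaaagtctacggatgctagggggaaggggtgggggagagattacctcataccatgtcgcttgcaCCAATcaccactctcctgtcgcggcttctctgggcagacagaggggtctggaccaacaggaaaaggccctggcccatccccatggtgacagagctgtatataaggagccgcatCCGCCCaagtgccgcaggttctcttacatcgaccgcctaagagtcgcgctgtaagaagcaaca
Tuba1b: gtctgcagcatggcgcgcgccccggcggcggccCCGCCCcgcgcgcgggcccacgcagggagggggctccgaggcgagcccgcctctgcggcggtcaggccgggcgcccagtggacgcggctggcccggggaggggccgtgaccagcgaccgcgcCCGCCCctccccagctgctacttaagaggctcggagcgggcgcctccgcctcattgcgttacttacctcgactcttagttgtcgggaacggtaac
Of the 10 genes 7 had a promoter in the table, and 6 motifs were searched on both strands, none of whose matches overlapped. CCAAT was present in 4 of 7 and in 33.8% of all 32851 promoters, and GGGCGG, the GC box, in 5 of 7 and 32.7%. TATAAA was present in 1 of 7 (Tubb2a) and 12.4%, TGACGTCA, the cyclic AMP response element, in 1 of 7 (Tubb2a) and 1.55%, CACGTG, the E-box, in 1 of 7 (Tubb5) and 6.02%, and TGATGCAA, an element of C/EBP and ATF factors, in 0 of 7 and 0.791%. Tuba1a held a CCAAT and a GC box, and Tuba1b a pair of GC boxes. These matches describe the letters alone.

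The genes whose profile over the 8 libraries was closest to that of Tuba1a, by root mean square difference of log2 values centred on each gene's mean, were Fkbp11 (0.221), Lrp8 (0.221), Shmt2 (0.228), Notum (0.232) and Atf5 (0.242), of 8579 genes averaging 5 FPKM or more. Among tubulins, Tuba4a ranked 31 (0.324), Tubb2b 49 (0.346), Tubb6 144 (0.409), Tubb4b 169 (0.421), Tuba1b 712 (0.512), Tubb5 792 (0.518), Tuba1c 1290 (0.553), Tubg1 3531 (0.643) and Tubb2a 6487 (0.758). This measure contains the difference between the genotypes, so the ranks largely restate the log2 changes. After centring on the genotype means, which takes that difference out, the nearest genes were Gm26616 (0.103), Abhd14a (0.105) and 2610002J02Rik (0.12), none of them called.

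Markers of other cell types were read beside these differences. All 10 embryonic stem cell markers averaged at least 5 FPKM, and 1 was called, against 15.8% of all genes. It was Sox2, at 70.1 FPKM in iPKO and 91.8 FPKM in iPHet (limma adjusted p = 0.00539, and 0.123 with an estimated correlation). With the replicate block Esrrb and Zfp42 were also called lower (limma adjusted p = 0.0302 and 0.0208), and Tbx3 higher (0.0332). Of 10 neural markers 5 were tested and 3 fell, against 9.53% of all genes: Nes, at 2.75 FPKM in iPKO and 5.2 FPKM in iPHet, Ncam1, at 3.57 FPKM in iPKO and 6.7 FPKM in iPHet, and Map2. With an estimated correlation none of these was called (adjusted p = 0.187 for Nes, 0.168 for Ncam1 and 0.339 for Map2). Sox1 ran the other way, at 1.37 to 2.06 FPKM in iPKO and 0.896 to 1.28 FPKM in iPHet with no overlap, and was not called (limma adjusted p = 0.0524; 0.0306 with the replicate block). The summed neural list was 95.0 to 135 FPKM in iPKO and 143 to 181 FPKM in iPHet, mostly Stmn2, with 4 genes under 1 FPKM in all libraries and Dcx at 0 in some. The 11 feeder fibroblast markers summed to 192 to 255 FPKM in iPKO and 267 to 285 FPKM in iPHet, mostly Fn1. Of these 4 were tested and 0 called, against 15.8% of all genes. With the replicate block Twist1 was called higher in iPKO (limma adjusted p = 0.0447). Postn and Lum were at 0 in all libraries and Col1a2, Col3a1 and Dcn at 0 in some. The part of the neural and fibroblast lists in the tubulin differences was not tested.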

How the data were processed

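RNA was measured in 8 libraries, 4 iPKO and 4 iPHet, from total RNA with an Illumina TruSeq kit and paired reads, per the labels' protocols. The authors deposited FPKM values per gene and library, with confidence bounds, per the file headers. The submitters' processing notes name Trimmomatic, a read trimmer, and the build mm10. No source used here names the strand or the quantifying program. The 39013 rows per file held 38991 identifiers, and rows of 19 identifiers at more than 1 locus were summed. Depth is unknown because there are no counts, so no counting interval is given.

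Values were log2(FPKM + 1), which understates changes of low genes. The 12462 genes averaging 1 FPKM or more in iPKO or in iPHet were tested with limma 3.58.1 (R 4.3.3, trend on mean level), all 8 libraries and no covariate, with Benjamini-Hochberg adjustment over all genes and a threshold of 0.05; folds are of mean FPKM. The script was tested on simulated data. Sequences were read with Biopython 1.88 from GENCODE vM21, which held 96% of identifiers, and from the RefSeq promoter table. Alternatives were another pseudocount, filter and scaling, a replicate block, pair averages, an estimated correlation, odd-numbered or even-numbered libraries only, and leaving out each library. Same-numbered libraries of the genotypes deviated together at correlations of 0.104, 0.162, 0.204 and 0.107, all above the 0.1 taken as the limit for pairing. Values with the number as a block are therefore given for listed tubulins and other list genes whose call they change. The test without the block is kept as the main one. The labels do not state this pairing, and libraries with other numbers reached 0.124 (iPKO 4 with iPHet 2). The rule for named genes took all listed tubulins, Prmt5, tested other tubulins, up to 4 members of each pathway list with the smallest p, the tested genes within 250 kb of Tuba1a, and the 5 and 3 genes nearest in profile to it by the 2 centrings; called list members and genes listed at 0 were named after their values were seen where they fall outside it. The members and gene lists were chosen with earlier results of these data known. Some sequences and 1 marker are not reported here.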

Additional observations from a re-analysis of the deposited data

Results flagged for a closer look

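Of 116 groups of 4 libraries checked over 58 named genes, 3 held a library far from the others by Dixon's criterion, and chance flags about 1 in 20 groups. Tubg2 in iPKO 1 was 2.68 FPKM, with the other iPKO libraries at 2.93, 2.93 and 2.94 FPKM. Hdac6 in iPHet 2 was 41.7 FPKM, with the other iPHet libraries at 45.0, 45.1 and 45.4 FPKM. Dnajc22, a neighbour of Tuba1a, was 6.81 FPKM in iPKO 4, with the other iPKO libraries at 5.14, 5.23 and 5.29 FPKM. No value of Tuba1a or of another listed tubulin was flagged in this way.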

How the results depend on the processing

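The 1973 genes called became 3427 with the replicate block, 7 with pair averages, 6 with pair averages and an odd and even term, 198 with that term over protein-coding genes, 52 with an estimated correlation, 5316 in odd-numbered and 4581 in even-numbered libraries, and 1270 to 1485 with 1 library left out. The 3 listed tubulins called other than Tuba1a became, in the same order of alternatives, 5, 0, 0, 1, 0, 5 and 2, and 3 to 4 with 1 library left out. The 8 pathway genes called became 14, 0, 0, 0, 0, 33 and 31, and 4 to 8. The causes were not tested, except that pair averages leave 2 values per genotype. Prmt5 stayed at -2.13 with pair averages, without and with the term, but lost its call (adjusted p 0.191 and 0.0809). The log2 change of Tuba1a was -1.56 in odd-numbered and -0.90 in even-numbered libraries, and -1.40 to -1.06 with 1 library left out. The replicate block otherwise changed no call among the listed tubulins beside Tuba1c and Tubb5.

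Signs turned only for genes that were not called, in the alternatives run. With quantile normalization and upper-quartile scaling Tubg1 was 0.00 and 0.01, Tubd1 0.01 and 0.03, and Rhebl1 0.04 and 0.04. In odd-numbered libraries Tubb2a was 0.03, Tubd1 0.02, Rhebl1 0.15, Lmbr1l 0.07 and Abhd14a -0.15. In even-numbered libraries Tuba3a was -0.06, Tubg1 0.02, Pfdn1 0.04, Prph 0.02, Dnajc22 0.19, Gm26616 0.29 and 2610002J02Rik 0.10. With 1 library left out the lowest and highest values were -0.14 and 0.16 for Tuba3a, -0.20 and 0.07 for Tubb2a, -0.08 and 0.01 for Tubg1, -0.09 and 0.07 for Tubd1, -0.05 and 0.03 for Rhebl1, -0.01 and 0.10 for Troap, -0.14 and 0.02 for Dnajc22, -0.20 and 0.06 for Gm26616, and -0.23 and 0.08 for 2610002J02Rik. The alpha sum was 61.7% to 82.6% and the beta sum 78.3% to 83.3% of iPHet over the alternatives run.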
